A study of Mus musculus with 4 samples.

Results

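In mouse fibroblasts pulsed with hydrogen peroxide, 58 microarray probes carrying 57 gene names stayed at least 2-fold below the untreated control at 4 h, at 20 h and at 32 h. They were taken from 19697 probes (15278 gene names) that lay well above background on all 4 arrays, out of 39429 probes on the array. In all, 60 probes met the limit, or 0.305% of those measured, and *Ctgf* and *Zfp318* among them were left out by name. The members were chosen by their measured log2 differences from the control on the same 4 arrays that are described here, so these differences are given as a description without a test.

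RNA came from NIH-3T3:Per2-Luc, a mouse embryonic fibroblast line carrying luciferase driven by the *Per2* promoter. Cells received 5 mM H2O2 for 10 min, the dose termed critical oxidative stress (cOS-pulse), and were harvested 4 h, 20 h or 32 h later. Control cells had 0 mM H2O2 and an exchange to fresh medium, and their label gives 4 h. With 1 array per condition there was no replicate, so no p-value could be given, and the control array was shared by all 3 comparisons. No untreated array of 20 h or 32 h was used here, and at those times the effect of the cOS-pulse and the time since the medium change cannot be told apart. In such bulk RNA, fewer cells of a kind and less RNA per cell cannot be told apart either.

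Fibroblasts keep their shape and tension through actin filaments anchored at focal adhesions, and they build and remodel the matrix around them. Genes of this contractile program respond to serum, stretch and transforming growth factor through transcription partners such as SRF, SMAD and TEAD proteins. Peroxide oxidizes proteins and membranes, and cells that survive a pulse can stop dividing while damage is repaired.

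Signals are given as scaled log2 signals, the log2 of the processed spot brightness minus the 75th percentile of that array, and differences are treated minus control on that scale, where -1 is 2-fold lower. Each difference carries a spot error from the scanner software, between 0.20 and 0.37 for these probes with a median of 0.22, which covers the spot and not the biology. Between 20762 and 23295 probes were detected per array, and the 75th percentile of the treated arrays lay -0.28, 0.33 and 0.18 from the control at 4 h, 20 h and 32 h before scaling. All 8 fibroblast markers examined (*Col1a1*, *Col1a2*, *Col3a1*, *Vim*, *Pdgfrb*, *Thy1*, *Fn1* and *S100a4*) were detected on the 4 arrays. With the brightest probe of each, 1, 3 and 0 of the 8 were at least 2-fold lower at 4 h, 20 h and 32 h, the 20 h ones being *Thy1* (-1.39), *Col1a1* (-1.06) and *Col3a1* (-1.02), and the list median was -0.44, -0.42 and -0.38. The part of this in the members' differences was not tested. Other scalings move the 4 h array against the later ones, so that the members' median step from 4 h to 32 h was 0.03 with the 75th percentile and 0.59 with spike-ins, and orders between 4 h and a later time hold for the 75th percentile unless another setting is named. *Epcam*, *Cdh1* and *Cldn4* of epithelium, *Ptprc* of leukocytes and *Tek* of endothelium were not well above background on any array, while *Krt14*, *Cd68*, *Cd3e*, *Pecam1* and *Kdr* were. *Cd68*, a marker of macrophages, had a scaled log2 signal of -1.33 in the control and 0.75, -1.13 and -1.06 at 4 h, 20 h and 32 h, and its part in the results was not tested.

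The median difference of the 58 probes was -1.53 at 4 h, -1.55 at 20 h and -1.47 at 32 h, or 2.89-, 2.92- and 2.77-fold lower than the control. Over all 19697 measured probes the medians were 0.17, 0.0021 and -0.0070. The share of all measured probes that passed the 2-fold limit in this direction was 8.07% at 4 h, 1.73% at 20 h and 1.49% at 32 h. The members spanned -3.68 to -1.02 at 4 h, -3.56 to -1.06 at 20 h and -3.18 to -1.01 at 32 h. At least 4-fold differences were held by 16 probes at 4 h, 19 at 20 h and 12 at 32 h, and by 6 probes at all 3 times, which were *Acta2*, *Wisp2*, *Bnc1*, *Mtrf1*, *Prrx2* and the transcript ENSMUST00000145279. With normexp background correction, tried for this count after the data were seen, *Acta2* was the 1 probe left at this limit. Under the 5 other scalings 6 or 7 probes met it, but not always the same ones. *Acta2*, *Wisp2*, *Bnc1* and ENSMUST00000145279 met it under all 5. ENSMUST00000145279 had scaled log2 signals of -4.69 at 20 h and -4.43 at 32 h. Both lay within 0.5 of the dimmest measured probe of their array, so these values are near the floor. *Prrx2* fell short with the median, with spike-ins and without scaling, and *Mtrf1* without scaling. *Murc*, *Pcdh19* or *Gm9958* met it under some of them.

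**Figure D1:**
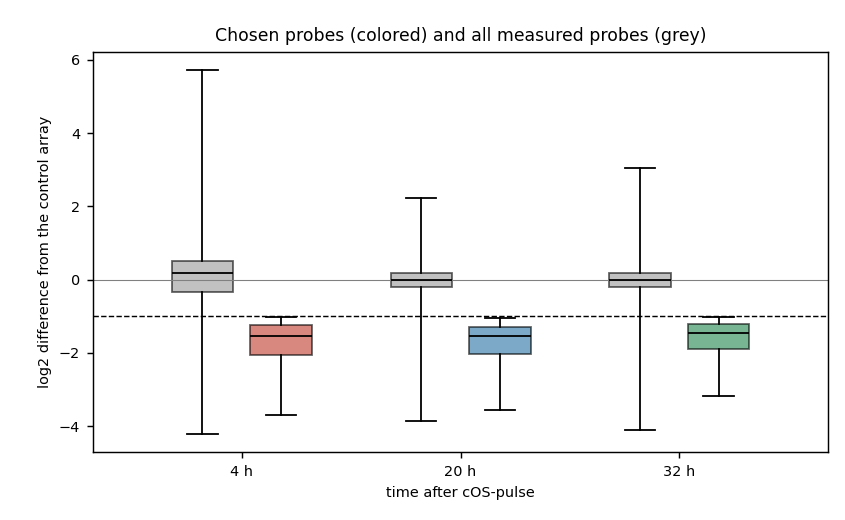
Boxes show the log2 difference from the control array at 4 h, 20 h and 32 h for all 19697 measured probes (grey, the 58 included) and for the 58 probes chosen (colored), with the line at the median, the box from the lower to the upper quartile and whiskers to the lowest and highest value. The dashed line is the limit of -1 that chose the members, whose medians are -1.53, -1.55 and -1.47.

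Genes of the actin skeleton and its anchors included the member whose smallest difference was the deepest of the 58. *Acta2*, smooth muscle alpha-actin and the usual marker of contractile myofibroblasts, had scaled log2 signals of 0.04 in the control and -2.76, -3.52 and -3.07 at 4 h, 20 h and 32 h. It was thus 6.95-, 11.8- and 8.65-fold lower, with the lowest value at 20 h. Its probe is printed 10 times on each array (mm9 chr19:34316060-34316119, minus strand), and the standard deviation among these spots was 0.05 in the control and 0.09, 0.12 and 0.08 on the treated arrays, a technical spread within 1 array. *Vcl*, which encodes vinculin of focal adhesions, went from 0.99 in the control to -0.48, -0.84 and -0.92, or 2.78-, 3.56- and 3.77-fold lower (mm9 chr14:21852105-21852164, plus strand). Its 20 h and 32 h values were apart by less than the spot error, and with spike-in scaling the differences were -1.88, -1.63 and -1.76. The remaining members near the membrane skeleton were *Murc* (now *Cavin4*), a coat protein of muscle caveolae, with differences of -1.85, -2.72 and -2.34, and *Epb4.1l2* (*Epb41l2*), a membrane-to-actin linker, with -1.07, -1.37 and -1.16.

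For 42 of the 51 current symbols of the members, RefSeq (GRCm38.p6) gave a promoter of 250 bases before and 50 bases after the start. Stretches before the start are shown for the 2 contractile genes and for 2 members whose promoter holds a TATA box about where one usually sits. Capitals mark the match, a CArG box (the binding motif of SRF) starting 227 bases before the start of *Vcl*, the TEAD motif GGAATG 146 bases before that of *Acta2*, and TATAAA 30 and 29 bases before those of *Cavin4* and *Slco2a1*. The stretches lie at chr14:20929148-20929240 (plus strand), chr19:34255454-34255579 (minus strand), chr4:48663424-48663513 (plus strand) and chr9:103008398-103008486 (plus strand).
Vcl: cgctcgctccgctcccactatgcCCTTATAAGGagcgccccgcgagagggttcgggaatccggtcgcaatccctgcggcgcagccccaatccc
Acta2: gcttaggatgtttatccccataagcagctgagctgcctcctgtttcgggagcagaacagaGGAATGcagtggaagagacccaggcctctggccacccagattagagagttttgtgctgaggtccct
Cavin4: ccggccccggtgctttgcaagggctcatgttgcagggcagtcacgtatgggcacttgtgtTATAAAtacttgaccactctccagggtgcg
Slco2a1: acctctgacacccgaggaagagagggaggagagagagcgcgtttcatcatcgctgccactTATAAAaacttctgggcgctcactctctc

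For 12 motifs searched on both strands of the 300-base windows, a gene counted when any of its promoters held the motif. The 42 member genes had 58 promoters and all 27025 genes, measured on the array or not, had 32851. The part of the number of promoters per gene in the shares was not tested. The GC box GGGCGG was found for 25 of the 42 member genes (59.5%) and for 38.2% of all 27025 genes. The median GC content was 57.3% in member promoters and 52.7% in all, and the median number of CpG was 14.5 against 7. The part of base composition in these shares was not tested. TATAAA was found for 9 members (21.4%, all genes 15.7%) and GGAATG for 7 (16.7%, all genes 16.6%). The CArG box in the exact form CCWWWWWWGG, W being A or T, was found for 2, *Vcl* and *Lurap1l* (4.76%, all genes 1.81%). CArG boxes that depart from this form by a base were not searched for, in *Acta2* or in any other promoter. The SMAD palindrome GTCTAGAC was in 1 member promoter, that of *Smad6* (2.38%, all genes 0.248%). Lower shares were found for the AP-1 motif TGACTCA (4.76%, all genes 5.95%), the CCAAT box (35.7%, all genes 41.1%), the ETS motif CCGGAAG (2.38%, all genes 9.93%) and TGACNNNGC of the antioxidant response element (9.52%, all genes 14.0%). The E-box CACGTG was in 9.52% (all genes 8.09%), the heat shock motif GAANNTTC in 11.9% (all genes 9.04%) and the CRE TGACGTCA in 2.38% (all genes 2.03%). These matches describe letters in a window and no motif overlaps were removed.

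The actin list, 42 measured genes of the cytoskeleton and of SRF targets, sets these members among their relatives. With the brightest probe of each gene, 9 of the 42 were at least 2-fold lower at 4 h, 7 at 20 h and 4 at 32 h, against 8.34%, 1.85% and 1.62% of all measured genes. *Acta2* and *Vcl* were those lower at all 3 times, a count that 0.308% of all genes share. None of the 42 was 2-fold higher at any time, against 7.98%, 0.674% and 1.05% of all genes. The list median was -0.41, -0.36 and -0.38, beside 0.17, 0.0042 and -0.0014 over all genes. *Cnn2*, calponin 2, differed at 4 h above all (-2.53, -0.67 and -0.60), and *Csrp2*, a LIM domain protein of actin bundles, mainly later (-0.45, -1.49 and -1.97). *Actg1*, a cytoplasmic actin of every cell, had -0.06, -0.83 and -1.10.

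**Figure D2:**
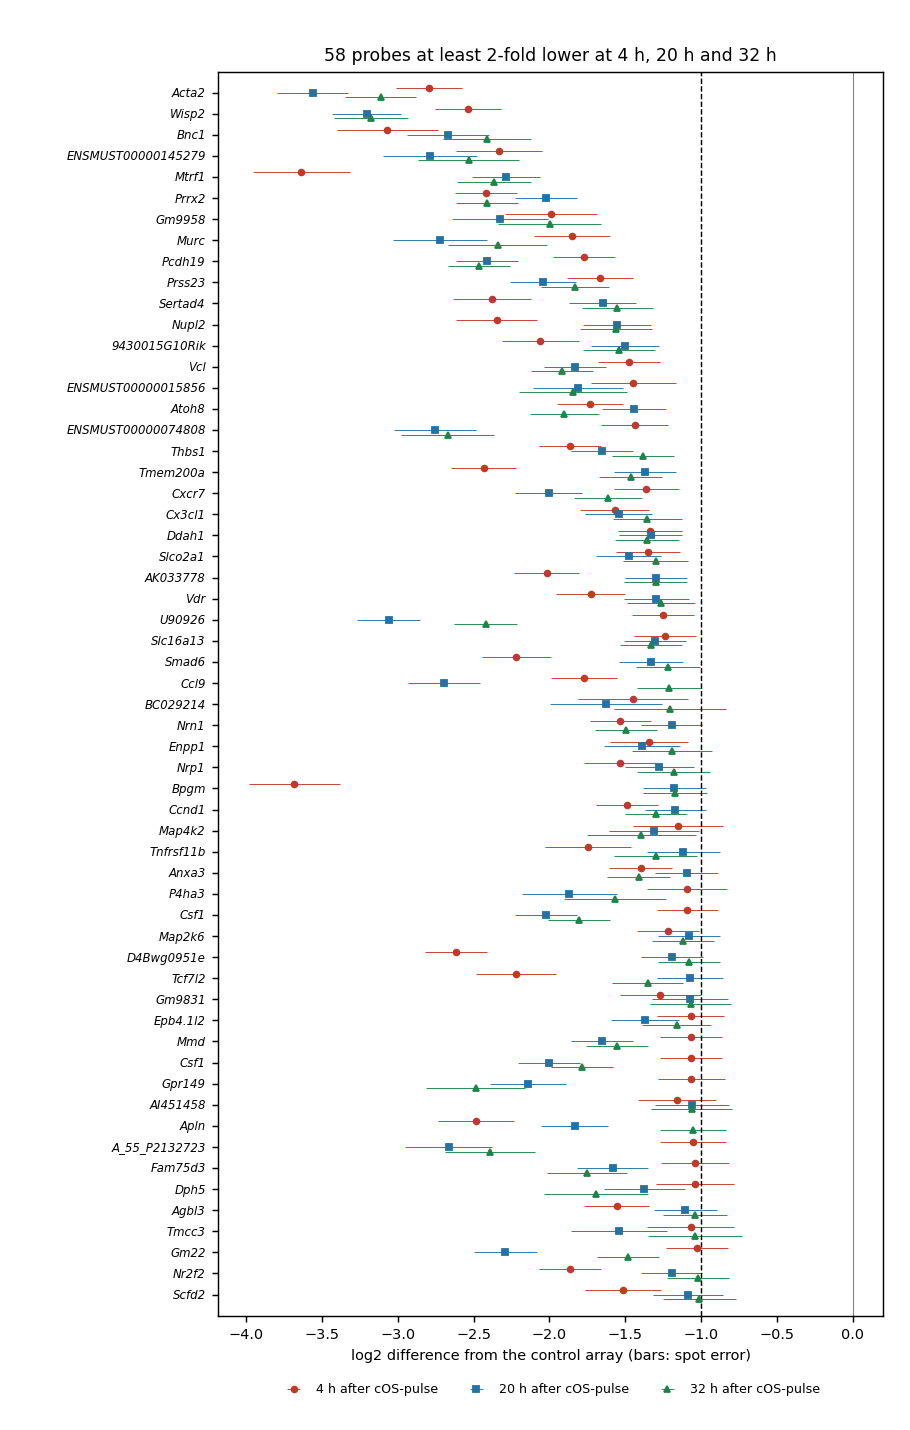
Each line is 1 of the 58 probes, ordered by the smallest of its 3 differences, with its log2 difference from the control at 4 h (circles), 20 h (squares) and 32 h (triangles) and bars for the spot error. *Acta2* stands at the top with -2.80, -3.56 and -3.11, and *Scfd2* at the bottom with -1.51, -1.08 and -1.01.

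Matrix and matricellular genes formed the next group, chosen, like the role groups that follow, after the values were seen. *Wisp2* (*Ccn5*), a secreted protein of the CCN family, had scaled log2 signals of -0.16 in the control and -2.69, -3.37 and -3.34 at 4 h, 20 h and 32 h. It was 5.80-, 9.23- and 9.05-fold lower, and the later arrays were the lowest. *Thbs1*, the adhesive matrix protein thrombospondin 1, was 0.65 in the control and -1.22, -1.01 and -0.73, so it lay lowest at 4 h and was higher at 32 h than at 20 h by more than the spot error. *P4ha3*, a catalytic subunit of collagen prolyl hydroxylase, differed by -1.09, -1.87 and -1.57 on the member probe, which was near the floor at 32 h. The further *P4ha3* probe differed by 0.18, 0.03 and 0.11. *Prss23*, a secreted serine protease, differed by -1.67, -2.04 and -1.83. *Ctgf* (*Ccn2*), the CCN relative that was left out by name, differed by -4.22, -2.96 and -3.22. Of 39 measured matrix glycoprotein genes, 1, 3 and 3 were at least 2-fold lower at 4 h, 20 h and 32 h, *Thbs1* being the one at all times, and 2, 0 and 1 were at least 2-fold higher. Of 24 matrix proteases and inhibitors 1, 9 and 6 were lower, none of them at all times, and 1 was higher at each time. All genes gave 8.34%, 1.85% and 1.62% lower, 0.308% lower at all times, and 7.98%, 0.674% and 1.05% higher.

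*Timp3*, an inhibitor of matrix proteases, shows what the limit leaves out. It differed by -0.97, -3.86 and -4.09, and its 4 h value kept it outside. The nearest probe outside was a further *Slc16a13* probe with -1.38, -1.09 and -0.998, followed by *Timp3* and by the unnamed AI662245, whose smallest difference was -0.96. Nearest inside were *Scfd2* (smallest difference -1.01), *Nr2f2* (-1.02) and *Gm22* (-1.02). Of the 58, 28 lay within 0.20 of the limit, and 32 further probes had all 3 differences of at least 0.80 in size without all reaching 1, so the border of the set is within the spot error for many.

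Transcription factors among the members came from several families. *Prrx2*, a homeodomain factor of embryonic mesenchyme, had a scaled log2 signal of 3.49 in the control and 1.07, 1.47 and 1.08 at 4 h, 20 h and 32 h. This was 5.34-, 4.06- and 5.32-fold lower, with nearly equal values at 4 h and 32 h, and the 20 h value above both by more than the spot error. *Bnc1*, the zinc finger factor basonuclin 1, went from -1.44 to -4.51, -4.11 and -3.86, or 8.39-, 6.36- and 5.33-fold lower. Its 4 h signal lay within 0.5 of the dimmest measured probe of that array, so that value is near the floor. *Atoh8*, a basic helix-loop-helix factor, was -1.06 in the control and -2.79, -2.50 and -2.96 later, the 32 h value being below the 20 h value by 0.46, more than the spot error.

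Nuclear receptors were represented by *Nr2f2* (COUP-TFII), at 1.52 in the control and -0.35, 0.32 and 0.49 at 4 h, 20 h and 32 h. This receptor was 3.65-fold lower at 4 h but 2.03-fold lower at 32 h. *Vdr*, the vitamin D receptor, differed by -1.73, -1.30 and -1.27. *Tcf7l2*, the DNA-binding partner of beta-catenin in Wnt signaling, differed by -2.22, -1.07 and -1.35. *Gm22*, now *Zfp469* and kept because its name on the array does not start with Zfp, differed by -1.02, -2.29 and -1.48, while *Sertad4*, of the SERTA domain family, differed by -2.38, -1.65 and -1.55. Among 71 measured mesenchymal transcription factors, 12 were at least 2-fold lower at 4 h, 4 at 20 h and 5 at 32 h, and *Prrx2* and *Nr2f2* were those lower at all times. At least 2-fold higher were 6, 0 and 0 of the 71, and the list median was -0.0086, -0.11 and -0.09. Of all genes 8.34%, 1.85% and 1.62% were lower, 0.308% at all times, and 7.98%, 0.674% and 1.05% were higher. Their medians were 0.17, 0.0042 and -0.0014. Of 35 measured Wnt pathway genes 7, 3 and 3 were lower and 0, 0 and 1 higher, with a list median of -0.31, -0.08 and -0.0053. *Wisp2* was the one lower at all times, since the brightest probe of *Tcf7l2* was not the member probe.

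**Figure D3:**
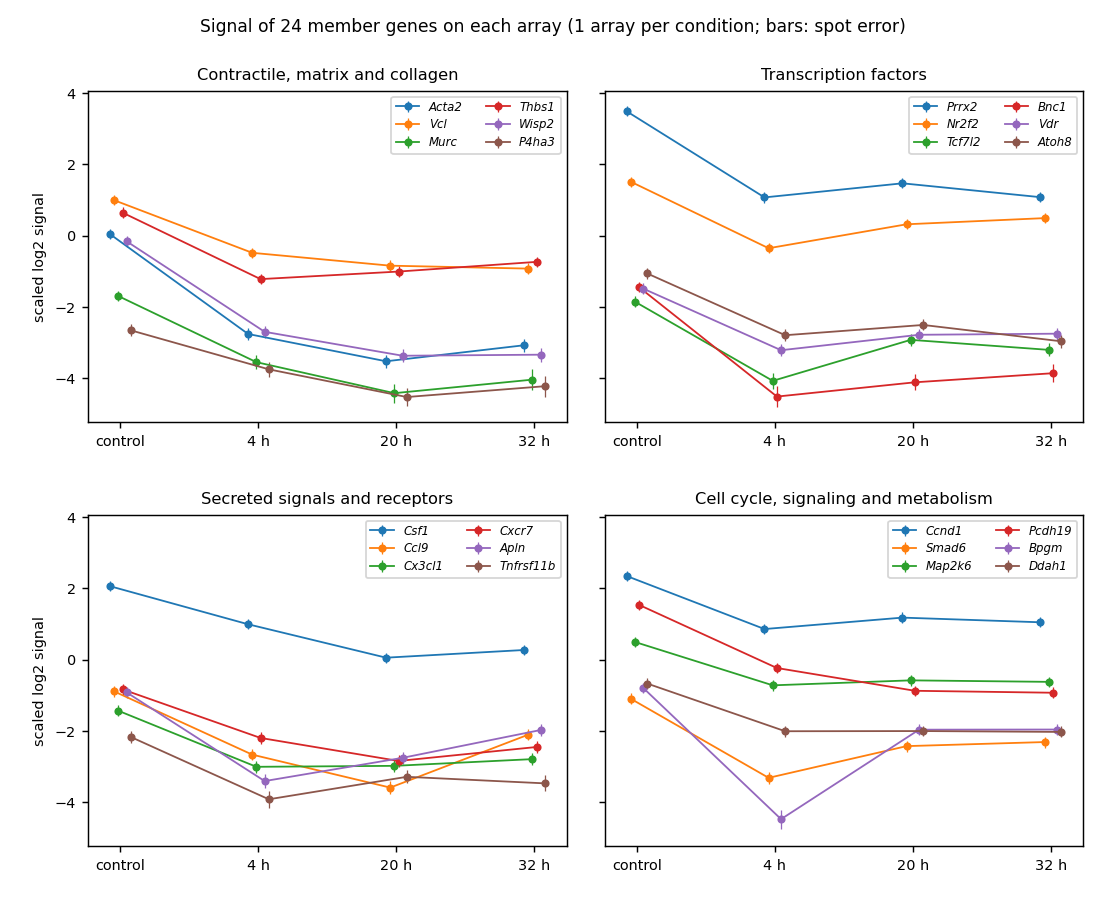
Scaled log2 signal of 24 member genes on the control array and at 4 h, 20 h and 32 h, in 4 groups by role, with bars for the spot error. Heights of different genes are not comparable, because each probe binds with its own efficiency. Within a gene every treated point lies below its control, *Bpgm* with its minimum of -4.47 at 4 h and *Prrx2* moving from 3.49 to 1.07, 1.47 and 1.08.

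Signaling proteins among the members included an inhibitor, kinases and a cyclin. *Smad6*, which blocks BMP signaling, had scaled log2 signals of -1.09 in the control and -3.31, -2.42 and -2.31 at 4 h, 20 h and 32 h. It was 4.66-fold lower at 4 h and 2.32-fold lower at 32 h. Its relative *Smad7*, which blocks TGF-beta signaling and is no member, differed by 0.13 at 4 h and by -1.32 and -1.23 at 20 h and 32 h. Of 38 measured genes of the TGF-beta and BMP pathway, 2, 9 and 6 were at least 2-fold lower at 4 h, 20 h and 32 h, and *Smad6* was the one at all times. At least 2-fold higher were 4, 0 and 0 of the 38, and the list median was -0.0025, -0.19 and -0.14. The same 8.34%, 1.85% and 1.62% of all genes were lower, 0.308% at all times, and 7.98%, 0.674% and 1.05% were higher. *Map2k6*, an activator of p38 kinases, differed by -1.22, -1.08 and -1.12, and *D4Bwg0951e* (*Lurap1l*) by -2.62, -1.19 and -1.08. *Map4k2*, a kinase upstream of JNK, differed by -1.15, -1.31 and -1.39 on the member probe, which was near the floor, but by 0.74, 0.53 and 0.46 on its further probe.

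*Ccnd1*, cyclin D1 of the G1 phase, had scaled log2 signals of 2.35 in the control and 0.86, 1.18 and 1.05 at 4 h, 20 h and 32 h. It stayed 2.81-, 2.25- and 2.46-fold lower. Of 46 measured G1/S and DNA replication genes, 24 were at least 2-fold lower at 4 h, but 1 at 20 h and 1 at 32 h, which was *Ccnd1* both times. Its relative *Ccnd3* differed by -1.23 at 4 h and by 0.07 and 0.14 later. Of 42 measured G2/M genes, 33 were at least 2-fold lower at 4 h and none at 20 h or 32 h, the list median being -1.58, -0.08 and -0.45. Over all measured genes the shares lower were 8.34%, 1.85% and 1.62%. Without scaling between arrays *Ccnd1* at 20 h was -0.84, and with spike-in scaling -0.97, either of which would leave it outside.

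Secreted signals included chemokines, a growth factor and a peptide hormone. *Csf1*, the macrophage colony-stimulating factor, was met by 2 member probes (mm9 chr3:107548521-107548580 and chr3:107548550-107548609, minus strand) that share bases and are not independent. The first had scaled log2 signals of 2.06 in the control and 0.99, 0.06 and 0.27 at 4 h, 20 h and 32 h. Both lay lowest at 20 h, at 2.09-, 4.01- and 3.45-fold below the control for this probe and 2.13-, 4.06- and 3.49-fold for its partner. *Ccl9*, a CC chemokine, was -0.89 in the control and -2.66, -3.58 and -2.10 later, so it was 6.48-fold lower at 20 h and 2.32-fold lower at 32 h. *Cx3cl1*, the membrane-bound chemokine fractalkine, differed by -1.57, -1.54 and -1.36 with no time apart from another by more than the spot error. *Apln*, the precursor of the peptide apelin, went from -0.92 to -3.40, -2.75 and -1.97, nearing the control at each time. *Nrn1*, neuritin, a membrane-anchored neurotrophic protein, differed by -1.53, -1.19 and -1.50, and *Tnfrsf11b*, osteoprotegerin, the secreted decoy receptor of RANKL, by -1.75, -1.12 and -1.30.

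Receptors and adhesion molecules at the surface moved in different courses. *Pcdh19*, a protocadherin, had scaled log2 signals of 1.54 in the control and -0.23, -0.87 and -0.93 at 4 h, 20 h and 32 h, or 3.41-, 5.32- and 5.52-fold lower. *Gpr149*, an orphan G protein-coupled receptor measured by 10 spots per array, was -1.69 in the control and -2.75, -3.83 and -4.18 later. Both were thus lower at 32 h than at 4 h, and for *Gpr149* the step was -1.42, or -0.87 with normexp. *Cxcr7* (*Ackr3*), a scavenging chemokine receptor, differed by -1.36, -2.01 and -1.62, and *Nrp1*, neuropilin 1, a co-receptor of semaphorins and VEGF, by -1.53, -1.28 and -1.18. Of 32 measured guidance and adhesion genes, 7, 4 and 4 were at least 2-fold lower at 4 h, 20 h and 32 h, *Pcdh19* and *Nrp1* being those lower at all times, and 2, 0 and 0 were higher. Of all measured genes 8.34%, 1.85% and 1.62% were lower, 0.308% at all times, and 7.98%, 0.674% and 1.05% were higher. The list median was -0.36, -0.14 and -0.09. *Mmd*, a membrane protein named for macrophage differentiation, had 3.14 in the control and 2.07, 1.48 and 1.58 later.

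Transporters, enzymes and housekeeping factors made up most of the rest. *Bpgm*, the mutase that makes bisphosphoglycerate, was deepest at 4 h. Its scaled log2 signal was -0.79 in the control and -4.47, -1.96 and -1.96 at 4 h, 20 h and 32 h. It was 12.8-fold lower at 4 h and 2.26- and 2.25-fold lower later, the 4 h signal lying within 0.5 of the dimmest measured probe of that array, and with normexp the 4 h difference was -2.40, or 5.27-fold. *Mtrf1*, a mitochondrial release factor, followed a like course from -0.87 to -4.51, -3.16 and -3.24, and its 4 h signal was near the floor as well. *Ddah1*, which degrades methylarginine inhibitors of nitric oxide synthase and was measured by 10 spots, differed by -1.34, -1.33 and -1.36. With spike-in scaling the 4 h and 20 h values were -1.74 and -1.13, and a further probe of the gene had -0.56 at 32 h.

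*Slco2a1*, the prostaglandin transporter, differed by -1.35, -1.48 and -1.30, and *Slc16a13*, a monocarboxylate transporter, by -1.24, -1.30 and -1.33. *Enpp1*, which makes pyrophosphate outside the cell, differed by -1.34, -1.39 and -1.19, and *Anxa3*, a calcium-dependent phospholipid-binding protein, by -1.40, -1.10 and -1.41. *Nupl2*, a nucleoporin, had -2.35, -1.55 and -1.56. *Nupl2* was lowest at 4 h, while *Slco2a1*, *Slc16a13* and *Enpp1* varied between times by 0.20 or less. *Scfd2*, of the Sec1 family, had -1.51, -1.08 and -1.01, *Dph5* of diphthamide synthesis -1.04, -1.37 and -1.69, and *Agbl3*, a carboxypeptidase of tubulin tails, -1.56, -1.10 and -1.04. *BC029214*, now *Paxx*, of DNA end joining, was 2.73-, 3.09- and 2.30-fold lower with spot errors of up to 0.37, near the floor on all 3 treated arrays.

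Members with no role described here include noncoding RNAs and clones. *U90926*, a long noncoding RNA, had scaled log2 signals of 1.62 in the control and 0.37, -1.44 and -0.80 at 4 h, 20 h and 32 h. It was 8.35-fold lower at 20 h and 5.36-fold lower at 32 h. *Tmem200a*, a membrane protein, differed by -2.43, -1.37 and -1.46, *Tmcc3*, of the coiled-coil membrane family, by -1.07, -1.54 and -1.04, *9430015G10Rik* by -2.06, -1.50 and -1.54, and *Fam75d3* (*Spata31d1a*) by -1.04, -1.58 and -1.75. The noncoding *Gm9831* had -1.27, -1.07 and -1.07, and the noncoding *Gm9958* went from a signal of -2.23 in the control to -4.22, -4.56 and -4.23. The 6 probes with no current symbol were the transcripts ENSMUST00000145279, ENSMUST00000015856 and ENSMUST00000074808, the clones AK033778 and AI451458, and an unnamed probe on chr1_random, with differences between -2.79 and -1.05. Of the 58, 49 probes belonged to protein coding genes, and 13 probes lay within 0.5 of the dimmest measured signal on at least 1 treated array but none did so in the control.

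The course after 4 h depended on the scaling. With the 75th percentile 26 of the 58 probes were furthest from the control at 4 h, 21 at 20 h and 11 at 32 h, whereas the counts were 42, 11 and 5 with spike-ins, 38, 13 and 7 with the median, and 22, 31 and 5 with normexp. Compared with 4 h, 31 were closer to the control at 32 h, 20 of them by more than the spot error, and 27 were further, 18 by more than the spot error. Spike-ins gave 48 closer and 10 further, the median 42 and 16, no scaling 45 and 13, and normexp 27 and 31. These counts under other settings were taken after the data were seen. *Bpgm* (2.51), *D4Bwg0951e* (1.54), *Apln* (1.43), *Mtrf1* (1.27) and, after them, *Smad6* had the largest gains from 4 h to 32 h on the log2 scale, that of *Bpgm* being 1.39 with normexp. *Gpr149* (-1.42), *U90926* (-1.17), *Csf1* (-0.71), *Fam75d3* (-0.71) and *Pcdh19* (-0.69) had the largest losses among probes with a gene symbol. The median change of the members was -0.02 from 4 h to 20 h and 0.08 from 20 h to 32 h.

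**Figure D4:**
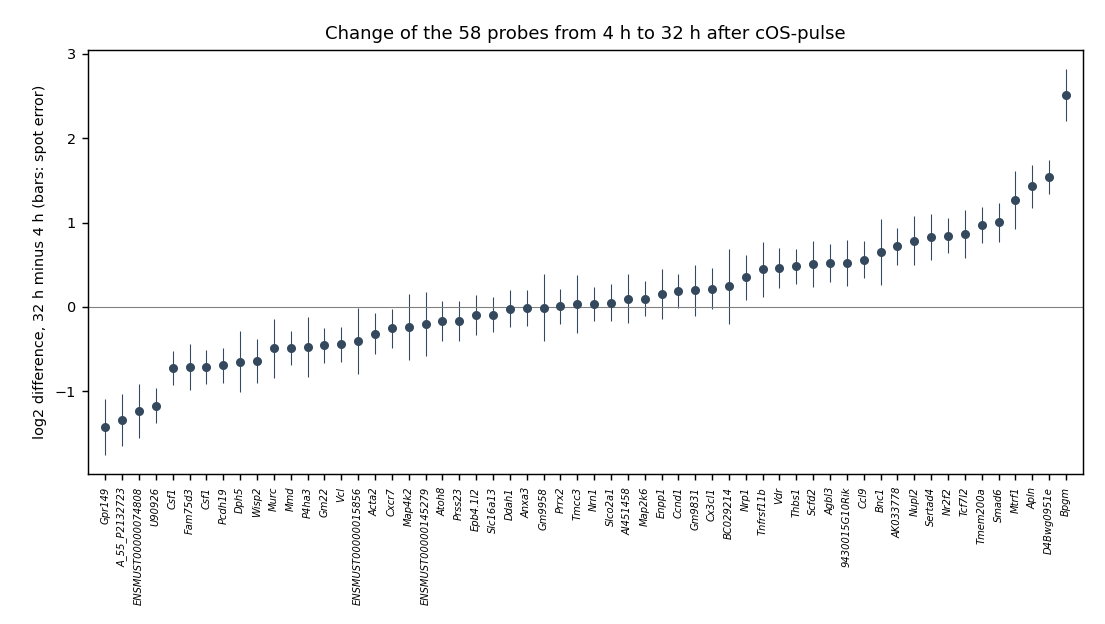
Log2 difference between the 32 h and the 4 h array for each of the 58 probes in ascending order, with bars for the spot error. Points above 0 were closer to the control at 32 h than at 4 h, from *Gpr149* at -1.42 to *Bpgm* at 2.51, with the 75th percentile as the scaling (31 points above 0, and 48 with spike-ins).

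Between 20 h and 32 h, 15 of the 58 probes were apart by more than the spot error, 10 of them higher at 32 h. The widest gap was that of *Ccl9*, 1.48 higher at 32 h. *Gm22* (0.81), *Apln* (0.78), *U90926* (0.64), *Acta2* (0.45) and *Cxcr7* (0.39) were also higher, while *Atoh8* (-0.46) and *Prrx2* (-0.39) were lower. These gaps rest on 1 array at each time.

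Other probes of the same genes, not kept by the limit, show where the differences were shared within a gene. On the array 19 member genes had 26 further probes, of which 16 (13 genes) were well above background on all 4 arrays. Of the 16, 11 were below the control at 4 h, 11 at 20 h and 12 at 32 h, 9 of them at all times, and their medians were -0.59, -0.55 and -0.59. At least 2-fold lower were 6, 4 and 0, which the rule itself bounds, since a probe lower at all times would be a member. *Mmd* had 2 further probes with -1.05, -1.05 and -0.94, and -0.99, -1.03 and -0.92, close to the member probe at 4 h and nearer the control later. For *Ddah1* the further probe had -1.44, -1.43 and -0.56, the same as the member probe within the spot error at 4 h and 20 h but not at 32 h. *Scfd2* had -1.53, -0.63 and -0.79, and the further probes of *Nupl2* had -1.37, -0.52 and -0.62, and -0.68, -0.08 and -0.06.

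In other genes the probes disagreed. The further *Csf1* probe (mm9 chr3:107544333-107544392), printed 10 times per array, had 0.06 at 4 h and -0.88 and -0.85 at 20 h and 32 h, so it did not share the 4 h difference. *Tcf7l2* had 1 further probe with -1.98, -0.68 and -0.88 and another with -0.07, -0.40 and -0.31. *Map4k2* was above the control on its further probe at all times, by 0.74, 0.53 and 0.46, as were *P4ha3* (0.18, 0.03 and 0.11) and *Gm9958* (0.26, 0.26 and 0.11), though for *P4ha3* by less than the spot error. *BC029214* had -0.41, 0.24 and 0.17 on its further probe, *Dph5* 0.00, -0.57 and -0.62, and *9430015G10Rik* -0.49, 0.11 and -0.44. The member probes of *Map4k2*, *P4ha3*, *Gm9958*, *BC029214* and *Dph5* lay within 0.5 of the dimmest measured signal on at least 1 treated array, and the part of this in the disagreement was not tested.

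**Figure D5:**
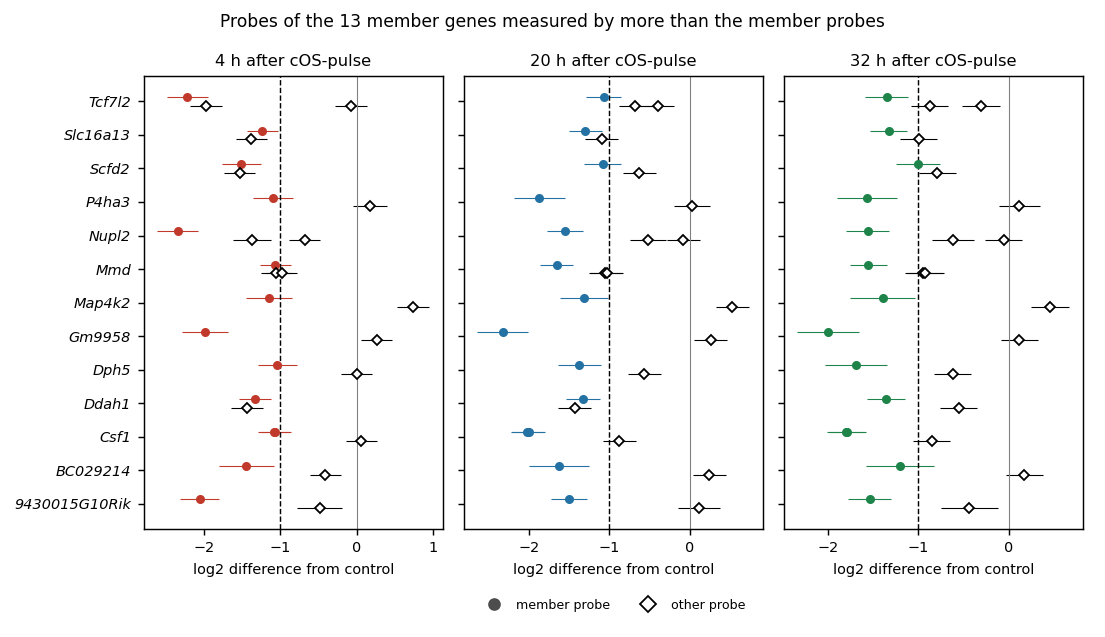
Log2 difference from the control at 4 h, 20 h and 32 h for the 13 member genes that had further probes well above background on all 4 arrays, with filled circles for member probes, open diamonds for the 16 further probes and bars for the spot error. The further probes of *Mmd*, *Slc16a13* and *Scfd2* lie on the side of the member probes, and those of *Map4k2*, *P4ha3* and *Gm9958* lie above 0.

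Members lay on 16 chromosomes, and some were neighbors by the positions of their probes on mm9. The *Map2k6* member probe and the clone AK033778 lie 9387 bases apart on the same strand of chromosome 11 with no measured probe between them. AK033778 differed by -2.02, -1.30 and -1.30. A further *Map2k6* probe, not well above background on any array, lies beyond the clone on that strand (mm9 chr11:110386219-110386278). The clone thus lies between probes of *Map2k6*, and the pair need not be separate genes. *Ctgf*, left out by name, and *Enpp1* lie 39707 bases apart on opposite strands of chromosome 10, also with none between. *Bpgm* and *Agbl3* lie 280559 bases apart on chromosome 6, with *Cald1* between them, of which 0 of 2 probes were 2-fold lower at any time.

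The counts of the other gene lists stand beside 8.34%, 1.85% and 1.62% of all measured genes lower and 7.98%, 0.674% and 1.05% higher. Lower at all 3 times were 0.308% of all measured genes. Of these lists, 34 measured YAP and TEAD pathway genes had 6, 5 and 2 at least 2-fold lower at 4 h, 20 h and 32 h, with *Ctgf* as the one at all times. *Cyr61* and *Ankrd1* did not meet the limit, with -0.25, -2.18 and -2.05, and -2.67, -1.10 and -0.77. Among 53 growth factor and receptor kinase genes, 4, 3 and 2 were lower and 8, 1 and 0 higher, with a list median of 0.06, -0.14 and -0.02, so that the share lower at 4 h was below the 8.34% of all genes. *Csf1* was not counted at all times because its brightest probe was not a member probe. Of 53 genes of lipid and glucose metabolism, 6, 1 and 1 were lower, *Bpgm* at all times, while 6, 10 and 12 were at least 2-fold higher. Of 36 mitochondrial and RNA modification genes, 2, 1 and 1 were lower, *Mtrf1* at all times. No gene was lower at all times in the list of integrins and focal adhesion, where 6, 2 and 0 of 28 were lower. The same was true of the lists of Notch, Hedgehog, chromatin, insulin and mTOR, clock, immediate early, interferon-stimulated and G2/M genes. Beside 0.308% of all genes, the absence of such a gene from lists of these sizes says little about them.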

How the data were processed

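Total RNA of 4 cultures, 1 per condition, was labeled with Cy3 and hybridized to 4 one-color Agilent arrays on 1 slide. The authors deposited intensities for each spot from Agilent Feature Extraction 10.7.3.1 (per the submitters' processing notes), corrected for local background and spatial trend, with surrogate values where a spot did not stand out. A further deposited table holds these intensities multiplied by a fixed factor for each array, as checked on every spot. From the deposited intensities, log2 signals were averaged over the spots of a probe without an outlier flag (125 to 161 spots per array were left out, and 0 were saturated), and the 75th percentile of the non-control probes was subtracted. A probe was well above background when at least 50% of its spots were. Names starting with Col, Hist, Id or Zfp and *Ctgf*, *Cyr61* and *Ankrd1* were left out. With 1 array per condition, SAM, the test named in the study's methods, was not repeated. Precision is limited by having 1 array each. Probe positions are those of the array design on mm9, and no annotation of exons of that build was used.

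The members and the 26 gene lists were chosen with earlier results of these data known. The rule for named genes took the 15 members with the largest smallest difference, the 5 with the largest change each way from 4 h to 32 h, the 5 brightest, those on a gene list, those with 2 member probes and those next to the limit (32 genes). The other members were named to account for every one, and the role groups and non-member genes were chosen after their values were seen. A list counted the brightest probe of a gene. Names were updated through RefSeq (GRCm38.p6), which gave a current symbol for 52 of 58 probes, 8 of them renamed.

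Alternatives were 5 other scalings, background correction by normexp in limma 3.58.1 (R 4.3.3; offset 50), outlier spots kept, the deposited scaled table, every spot or no spot required above background, and limits of 1.5-fold and 3-fold. Counts of members by time course and of 4-fold differences were recomputed under the first 8 of these after the data were seen. The rule was tried on copies of the control array with 4-fold falls put into bright probes and noise below the spot error. That trial does not cover dim probes or values near the limit. Calculations used Python 3.11.15, numpy 2.4.6 and pandas 2.3.3. 1 gene list and 1 marker gene are not reported here.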

Additional observations from a re-analysis of the deposited data

How the results depend on the processing

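Under the 8 alternatives that rescaled or re-extracted the signals, 0 of 1392 member values were at or above the control. Of 768 values of the 32 named genes, 724 stayed at least 2-fold lower and 579 moved by less than the spot error. These counts are no independent support, because members were chosen at -1 or lower on these arrays. The other scalings moved the median of all probes by between -0.40 and 0.33 only. Keeping outlier spots and using the deposited scaled table each returned the same 58 probes. For the deposited table this was fixed in advance, since scaling removes its fixed factor for each array. Its values in the counts above repeat the main ones. The number of probes meeting the rule was 62 with the median, 60 with quantiles, 63 with the 75th percentile of detected probes, 53 with 8 spike-in probes and 43 without scaling, and 35 of the 58 met it under all 5. The 23 others included *Ccnd1*, *Smad6*, *Nr2f2*, *Tcf7l2*, *Bpgm*, *Apln*, *Ddah1*, *Nrp1* and *Vdr*. Normexp left 34 probes, all among the 58, and lost the other 24, and the cause was not tested. Limits of 1.5-fold and 3-fold gave 178 and 10, and no background filter gave 559, since the probes that the filter removes then count. At 4 h, where these scalings moved the median of all probes by -0.36 (median), -0.11 (quantiles), -0.40 (spike-ins) and -0.28 (none), the members' median was -1.89, -1.80, -1.93 and -1.81, and with normexp -1.15. At 20 h it was -1.22 without scaling, which moved all probes by 0.33, and -1.25 with normexp, and at 32 h -1.18 with normexp. Counts over gene lists were taken with the 75th percentile alone. No paired analysis was possible because there was 1 array per condition, and for the same reason no replicate could be left out.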
